A study of Mus musculus with 3 samples.

Results

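Ribosome biogenesis and nucleolar genes were followed in thymocytes, the T cells that develop in the thymus, of 3 mouse genotypes. The set was a list of 40 genes chosen by function: RNA polymerase I subunits, small nucleolar ribonucleoprotein (snoRNP) proteins, nucleolar chaperones, assembly factors of the 40S and 60S ribosomal subunits, and 1 tRNA methyltransferase, Mettl1. Of these, 38 had a probe set with a single gene symbol and are described here, among 19938 genes measured in that way. Npm3 and Noc2l were not analysed here. The list was made with earlier results of these arrays known. Where a gene had several probe sets, the one with the highest mean value was used.

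Total RNA was hybridised to 1 Affymetrix whole-transcript array per genotype: wild type thymocytes from mice aged 12 weeks, β-catenin transgenic thymocytes from mice aged 16 weeks, and TCF-1-/- thymocytes from mice aged 8 weeks. TCF-1 is a transcription factor that binds DNA and recruits β-catenin, the effector of the Wnt pathway, and the study sought genes that depend on the pair. The cells were primary thymocytes passed through a strainer, and the labels mention no sort. Of the promoter that drives the transgene, the TCF-1 allele, and the number of mice per sample, nothing is stated in the labels. With 1 array per genotype, no value has an error, a test or a replicate check. The gene that encodes TCF-1 was not analysed here, so that label was not checked on its target. Ctnnb1, which encodes β-catenin, was higher with the transgene by 0.24, and whether its probes read the transgene is not known. Genotype, age and array cannot be told apart in any comparison below. Transcripts tied to sex also set the transgenic array apart from both others, as given with those comparisons. Values are the deposited values, taken as log2, and differences are in log2 units. A gene is called higher or lower where the difference between arrays is at least 1.5-fold (0.585), which is a rule of size.

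Ribosomes are built in the nucleolus. RNA polymerase I transcribes a long precursor rRNA, snoRNPs guide its methylation and pseudouridylation, and a large set of assembly factors folds and cleaves it while ribosomal proteins join to form the small (40S) and large (60S) subunits. Many of these genes are known to be transcribed under the control of MYC. In the thymus, demand for new ribosomes is high in the growing, dividing cells that pass from the double-negative to the double-positive stage (named for the CD4 and CD8 co-receptors), and low in the small resting double-positive cells that make up most of the organ.

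MYC binds the E-box CACGTG, and the sites that these genes carry near their starts are shown first, because the largest differences below include genes that have one and genes that do not. The promoter windows of the RefSeq table (build GRCm38.p6) run from 250 bases before to 50 bases after the start, and 36 of the 40 genes have one. The letters CACGTG, which read the same on both strands, were found in 8 of the 36 (22.2%), in 17 of 94 further ribosome biogenesis genes (18.1%), in 9.5% of the 15614 measured genes with a window, and in 8.09% of the 27025 genes of the table. The 8 sites are shown with up to 12 bases on each side, 5′ to 3′ on the strand of the gene, with the E-box in capitals. Those of Mybbp1a and Utp20 are shorter because the window ends there. The distance given is from the first transcribed base to the first base of the E-box, counting that base as 1.
Mettl1, chr10:127041950-127041979, plus strand, at 31: agctcggctctcCACGTGgactgcgtggca
Mybbp1a, chr11:72441355-72441376, plus strand, at 41: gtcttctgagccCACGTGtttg
Wdr43, chr17:71616220-71616249, plus strand, at 18: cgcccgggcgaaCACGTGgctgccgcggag
Nop2, chr6:125131811-125131840, plus strand, 60 bases before the start: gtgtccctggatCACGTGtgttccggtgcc
Tsr1, chr11:74898092-74898121, plus strand, at 25: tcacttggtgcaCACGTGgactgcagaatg
Pes1, chr11:3963965-3963994, plus strand, at 3: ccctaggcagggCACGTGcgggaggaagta
Utp20, chr10:88826765-88826789, minus strand, at 38: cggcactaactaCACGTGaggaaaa
Ltv1, chr10:13193092-13193121, minus strand, at 29: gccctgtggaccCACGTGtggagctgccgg
Of the 8 sites, 7 lie within the first 50 transcribed bases and 1 lies before the start. A match is a run of letters, and binding was not measured. A core TCF/LEF sequence, CTTTGAT on either strand, was in 1 of the 36 windows (2.78%) and in 4.29% of all genes of the table. It is the one of Noc4l, a 40S assembly factor, whose level on the TCF-1-deficient array was 8.90 against 8.81 on the wild type array.

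The first comparison asked which of these genes differ without TCF-1. In the mutant, 16 of the 38 members were higher than in wild type by 1.5-fold or more and 0 were lower. Over all genes, 4.04% were higher and 6.9% lower by that rule, or 6.42% and 4.91% with each array centred on its median, under which 21 members were higher and 0 lower. The median difference over members was 0.52 (1.44-fold), with quartiles of 0.34 and 0.74, and the median over all genes was 0. In sign alone, 36 members were above wild type, 1 (Bms1) had an identical value and 1 (Wdr12) was below, where 37.6% of all genes were above and 26.1% below. All 38 had a mean level above the median over genes (6.90). Among the 9969 genes at or above that level, 5.88% were higher by 1.5-fold and 12.7% lower, and in sign 35.4% were above and 45.8% below.

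At 2-fold, 2 members were higher, Mettl1 (1.05) and Polr1b (1.03), and 0 lower, where 1.33% of all genes were higher and 2.62% lower. Fbl (0.997) lay just under that fold. The members just outside the 1.5-fold rule were Polr1a (0.55) and Pes1 (0.55). Most members thus differed by a modest amount in a common direction, as the plot of levels shows.

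**Figure D1:**
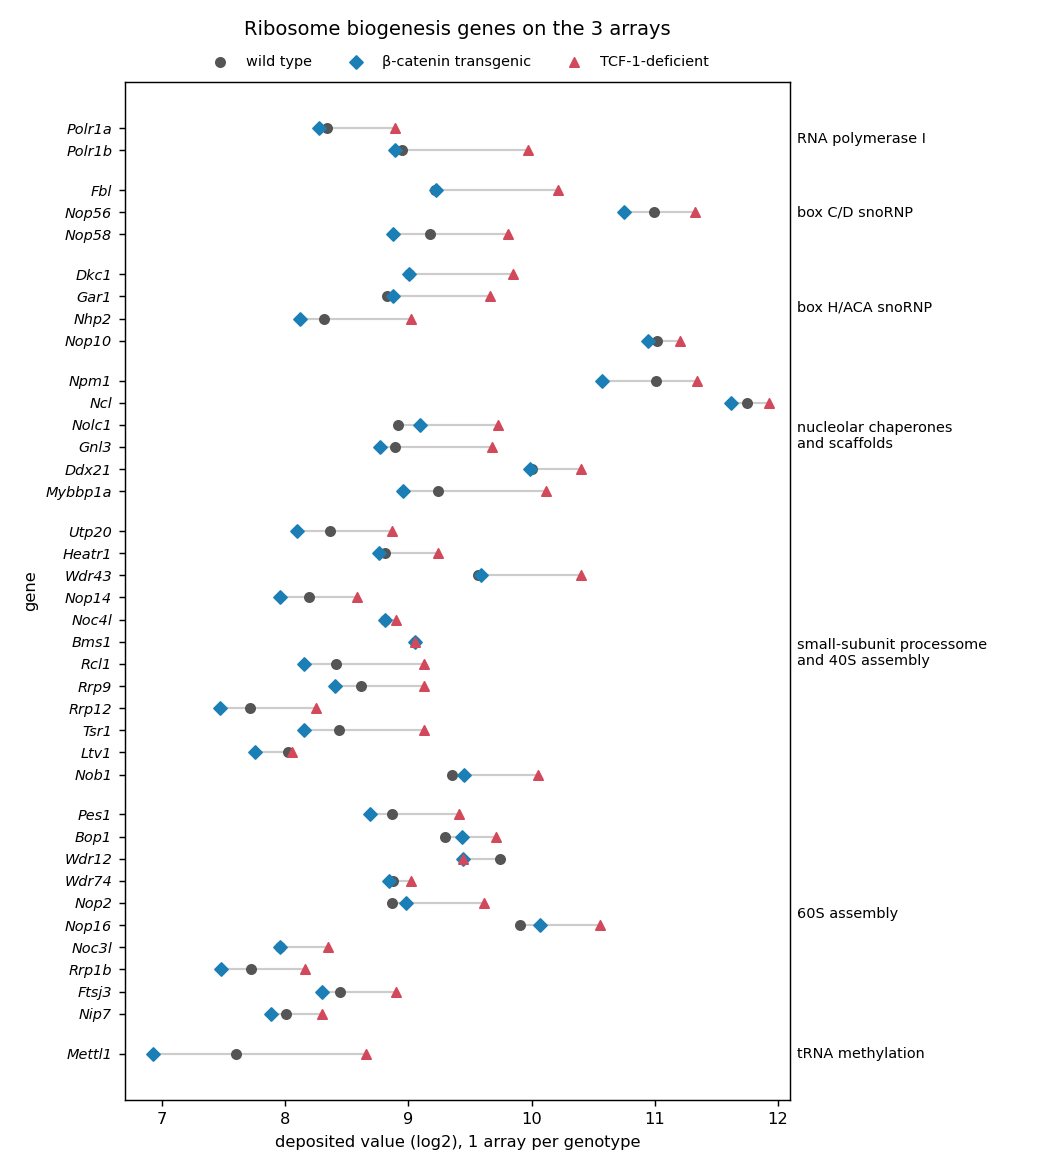
Deposited log2 values (horizontal axis) of the 38 measured genes (vertical axis, grouped by role) on the wild type (circle), β-catenin transgenic (diamond) and TCF-1-deficient (triangle) arrays, 1 array each, with a grey line over the range. The triangle lies to the right of the circle in 36 of the 38 genes, the exceptions being Bms1, with 3 identical values, and Wdr12.

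RNA polymerase I is the enzyme that transcribes the rRNA precursor, and its 2 largest subunits were both above wild type without TCF-1. Polr1b, the second-largest subunit, was at 8.95 in wild type, 8.89 in transgenic and 9.97 in TCF-1-deficient thymocytes, which is 2.04-fold above wild type. Polr1a, the largest subunit, was at 8.34, 8.28 and 8.89 in the same order, a difference of 0.55. The wild type and transgenic values of each gene differed by 0.06, and the TCF-1-deficient value stood above both.

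Box C/D snoRNPs place methyl groups on rRNA riboses. Fbl encodes fibrillarin, the methyltransferase itself, and was at 9.22 in wild type, 9.22 in transgenic and 10.22 in TCF-1-deficient thymocytes. Its core partner Nop58 was at 9.18, 8.88 and 9.81, which is 1.55-fold above wild type without TCF-1. Nop56, the other core partner, was at 10.99, 10.75 and 11.32, a difference of 0.33 that did not reach 1.5-fold. Among these 3 genes Fbl had the largest difference, and they differed by unequal amounts.

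Box H/ACA snoRNPs convert uridines of rRNA to pseudouridine, and 3 of their 4 core proteins were higher without TCF-1. Dkc1, which encodes the pseudouridine synthase dyskerin, was at 9.01, 9.01 and 9.85 on the wild type, transgenic and TCF-1-deficient arrays. Gar1 was at 8.83, 8.88 and 9.67, and Nhp2 at 8.32, 8.12 and 9.02. Their differences from wild type, 0.84, 0.84 and 0.70, were close to each other. Nop10, the smallest core protein, was at 11.02, 10.94 and 11.20, and its difference of 0.18 was well under the rule.

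Among chaperones and scaffold proteins of the nucleolus, 3 of 6 were higher. Mybbp1a, a MYB-binding protein of the nucleolus, was at 9.24 in wild type, 8.96 in transgenic and 10.12 in TCF-1-deficient thymocytes, 1.84-fold above wild type. Nolc1, a chaperone of snoRNPs, was at 8.92, 9.09 and 9.73. Gnl3, the GTPase nucleostemin of dividing cells, was at 8.89, 8.77 and 9.68. The other 3 encode major proteins of the nucleolus and were likewise highest without TCF-1, with smaller differences. Ddx21, an RNA helicase, was above wild type by 0.40 without TCF-1 and below it by 0.01 with the transgene, and Npm1, nucleophosmin, was at 11.01, 10.57 and 11.34. Ncl, nucleolin, had the smallest difference of the 6, at 11.75, 11.62 and 11.92.

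The small-subunit processome is the particle that forms on the 5′ part of the precursor and yields the 40S subunit. Of its 12 members here and factors of later 40S assembly, 4 were higher and 0 lower without TCF-1. Wdr43, an early processome protein, was at 9.57 in wild type, 9.59 in transgenic and 10.40 in TCF-1-deficient thymocytes. Rcl1, an RNA cyclase-like processome protein, was at 8.41, 8.15 and 9.12. Of the factors of later 40S assembly, Nob1, the endonuclease that makes the 3′ end of 18S rRNA, and Tsr1, a GTPase-like factor, were also higher. Nob1 was at 9.35, 9.45 and 10.05, and Tsr1 at 8.44, 8.15 and 9.13.

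The next 5 of the 40S factors were above wild type without TCF-1 but did not reach 1.5-fold. Rrp12 was at 7.71, 7.47 and 8.25, Rrp9, the U3 snoRNP protein, at 8.62, 8.40 and 9.13, and Utp20, a large scaffold, at 8.36, 8.10 and 8.87. Heatr1, another large scaffold, was at 8.81, 8.76 and 9.24, and Nop14 at 8.19, 7.96 and 8.59. The remaining 3 hardly differed between the wild type and TCF-1-deficient arrays. Noc4l differed by 0.09, Ltv1, a factor released from the late 40S particle, by 0.03, and the GTPase Bms1 had the value 9.05 on all 3 arrays. The tie of Bms1 is not a measured equality.

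Of 10 factors of 60S assembly, 2 were higher without TCF-1. Nop2, a methyltransferase of 28S rRNA, was at 8.87 in wild type, 8.98 in transgenic and 9.62 in TCF-1-deficient thymocytes. Nop16 was at 9.91, 10.07 and 10.56. The median difference of the 60S group was 0.43, against 0.51 for the 40S group, 0.77 for the box H/ACA group and 0.60 for the chaperones and scaffold proteins, with 10, 12, 4 and 6 genes. Smaller differences above wild type were found in Ftsj3 (0.45), Rrp1b (0.44), Noc3l (0.39), Nip7 (0.29) and Wdr74 (0.15).

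The PeBoW complex, made of Pes1, Bop1 and Wdr12, acts in the processing of 28S and 5.8S rRNA, and its subunits did not move together. Pes1 was at 8.87, 8.69 and 9.41 on the wild type, transgenic and TCF-1-deficient arrays. Bop1 was at 9.30, 9.44 and 9.71. Wdr12 was at 9.75 on the wild type array and at an identical 9.44 on both others, a difference of -0.30 in each comparison with wild type. No other member was below wild type without TCF-1.

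Wdr12 has another single-symbol probe set, with lower values of 8.91, 8.35 and 8.29, on which the TCF-1-deficient array was below wild type by more than 1.5-fold (-0.62). Both probe sets therefore place Wdr12 below wild type. For Fbl the other probe set read 9.20, 9.15 and 10.07, a difference of 0.87 without TCF-1. Npm1 is named by 3 further probe sets that also carry the symbol Gm15484 and were not used, with TCF-1-deficient values above wild type by 0.44, 0.48 and 0.40, against 0.33 on the set used. Whether these probe sets read near-identical copies of the genes was not tested.

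**Figure D2:**
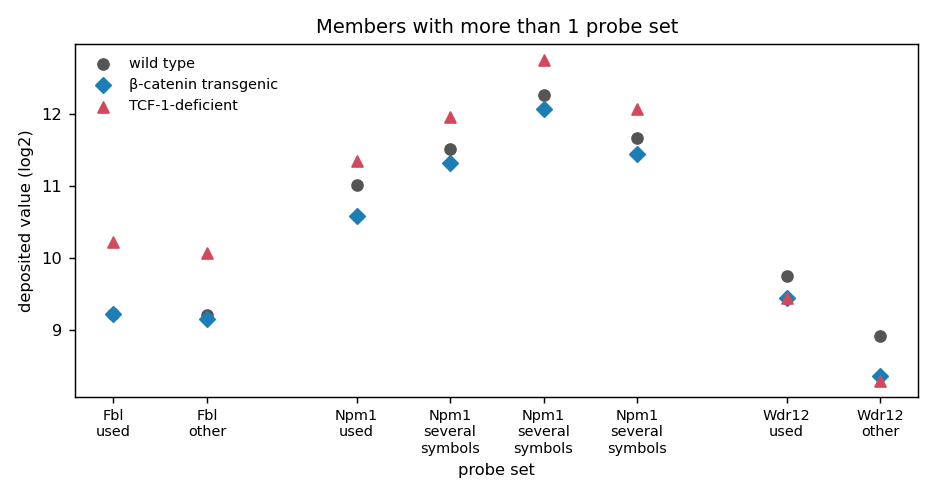
Deposited log2 values (vertical axis) of every probe set that names Fbl, Npm1 or Wdr12 (horizontal axis), on the 3 arrays; "used" marks the set taken for the gene and "several symbols" a set with more than 1 gene symbol. The TCF-1-deficient value is the highest in both sets of Fbl and all 4 of Npm1, and the wild type value is the highest in both sets of Wdr12.

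Mettl1, the catalytic subunit of the enzyme that places 7-methylguanosine in tRNAs, had the largest difference of the set. It was at 7.61 in wild type, 6.93 in transgenic and 8.66 in TCF-1-deficient thymocytes. Without TCF-1 it was 2.08-fold above wild type, and with the transgene it was 1.6-fold below (-0.68).

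The second comparison asked which members differ with the β-catenin transgene. With the transgene, 0 members were higher and 1, Mettl1, was lower than in wild type by 1.5-fold or more, where 0.487% of all genes were higher and 0.667% lower. The next largest differences were in Npm1 (-0.43), Wdr12 (-0.30), Nop58 (-0.30) and Tsr1 (-0.29). The highest was Nolc1 (0.18), followed by Nop16 (0.16) and Bop1 (0.14).

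In sign, 26 of the 38 members were below wild type on the transgenic array, 9 were above and 3 (Dkc1, Noc3l and Bms1) were identical, with a median of -0.12. Over all genes 22.2% were below wild type, 24.5% above and the rest identical. Among genes at or above the median level, 37.4% were below and 27.8% above. Centring each array on its median adds 0.079 to every difference, after which 20 members were below and 18 above and the median was -0.04, so the lean below wild type depends on the scaling. By role, before centring, the medians were -0.24 for the 3 box C/D proteins, -0.23 for the 12 genes of the 40S group and -0.13 for the 6 chaperones and scaffold proteins. They were -0.078 for the 10 genes of the 60S group, -0.06 for the 2 RNA polymerase I subunits and -0.04 for the 4 box H/ACA proteins. The medians of the 60S, RNA polymerase I and box H/ACA groups are smaller in size than the shift of 0.079. The transgenic array also differed from wild type in transcripts tied to sex. Xist, expressed from the inactive X chromosome, was lower by 7.63, and Eif2s3y, a Y-linked gene, was higher by 4.70. On the TCF-1-deficient array Xist differed from wild type by -0.32. The part of sex in the members' values was not tested.

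**Figure D3:**
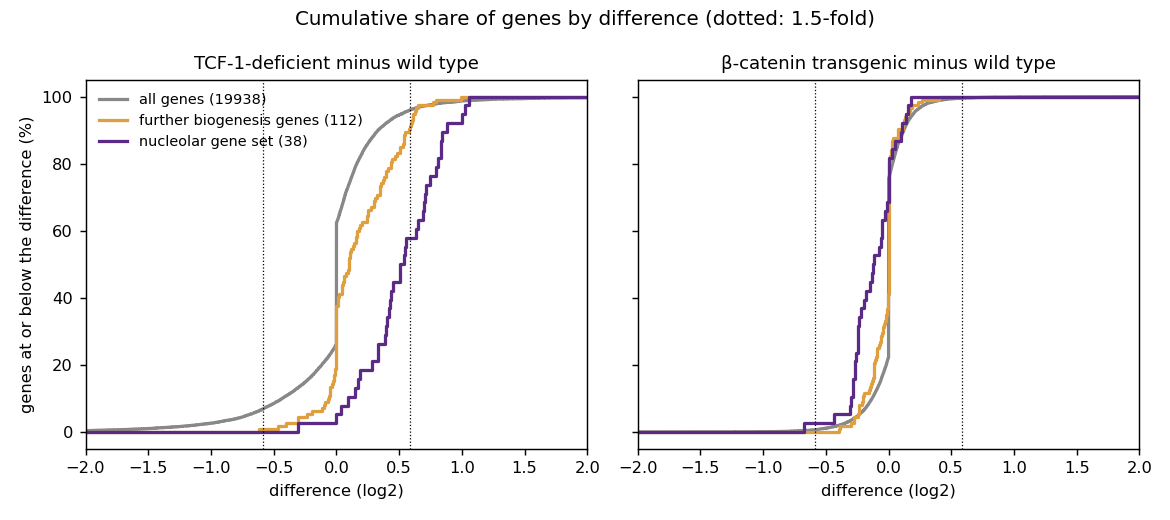
Cumulative share of genes (vertical axis, percent) at or below each log2 difference (horizontal axis) for the 38 nucleolar genes, the 112 further ribosome biogenesis genes and all 19938 genes, for each comparison with wild type; dotted lines mark 1.5-fold. In the TCF-1-deficient comparison the curve of the 38 genes lies to the right of both others over most of its range, with 16 genes beyond the right dotted line, and in the transgenic comparison 1 gene lies beyond the left one.

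For these genes, the mutant arrays differed more from each other than either did from wild type. In transgenic thymocytes 24 of the 38 members were lower than in TCF-1-deficient ones by 1.5-fold or more and 0 were higher, where 4.4% of all genes were lower and 6.29% higher. Over members the difference had a median of -0.64. At 2-fold 3 members were lower, Mettl1 (-1.73), Mybbp1a (-1.16) and Polr1b (-1.08), and 0 higher, where 1.57% of all genes were lower and 2.45% higher. The 2 members with identical values on these arrays were Bms1 and Wdr12, and the other 36 were all lower on the transgenic array. This comparison uses the same arrays as the others and adds no independent measurement. The 2 arrays also differed in Xist, which was lower on the transgenic one (-7.31), and the part of sex was not tested.

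The study looked for genes reduced in the absence of TCF-1 and increased by transgenic β-catenin. By the 1.5-fold rule, 0 of the 38 were lower on the TCF-1-deficient array, where 6.9% of all genes were. On the transgenic array 0 were higher, where 0.487% of all genes were, so that count is near the share over all genes. The share of all genes that meet both criteria was not counted. The first count depends on the probe set taken for Wdr12. Its other probe set was lower without TCF-1 by more than 1.5-fold (-0.62), and was not higher with the transgene (-0.56). Mettl1 was called in both comparisons, in the opposite sense, higher without TCF-1 and lower with the transgene. The comparisons share the wild type array.

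A wider list of ribosome biogenesis genes, taken by function, differed less than the 38. Of its 115 genes 112 were measured, and 11 of them (9.82%) were higher and 1 (0.893%) lower by 1.5-fold or more without TCF-1, against 42.1% and 0% of the 38. Their median difference was 0.10, and 70 were above, 22 below and 20 identical with wild type. Both lists were made with earlier results of these arrays known, so the gap between them is not independent evidence about either.

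The largest differences in the wider list were in Rrs1, a 60S assembly factor (0.997), Nat10, an RNA acetyltransferase of 18S rRNA (0.80), Znhit6, a snoRNP assembly factor (0.77), Rrp15 (0.65) and Nle1, a 60S factor (0.63). Rrs1 was at 7.57 in wild type, 7.84 in transgenic and 8.57 in TCF-1-deficient thymocytes. Nat10 was at 8.33, 8.09 and 9.13. Riok3, a kinase of the RIO family, was the 1 lower gene, at 9.27, 9.30 and 8.66. On the transgenic array 0 of the 112 were beyond 1.5-fold in either direction.

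By role, 7 of 51 further 60S genes were higher without TCF-1 and 0 lower (median 0.16). That list also holds the snoRNP assembly factor Znhit6, which was among the 7. Of 48 further 40S genes 3 were higher and 1 was lower (median 0.09). Of 13 further genes of RNA polymerase I and its initiation factors, 1 was higher, Polr1c, a subunit shared with RNA polymerase III (0.61), and the median was 0. Ubtf, the upstream binding factor of rDNA, was at 10.58, 10.72 and 10.64 on the wild type, transgenic and TCF-1-deficient arrays. Rrn3, which brings the polymerase to the promoter, had the value 10.01 on all 3, a tie that is not a measured equality. Without TCF-1, 6 of the 13 were above wild type, 5 below and 2 identical. Polr1a and Polr1b thus differed from most of the other polymerase I genes in size of difference.

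The MYC network was listed because MYC is a known activator of these genes. Myc was at 11.13 in wild type, 10.84 in transgenic and 12.23 in TCF-1-deficient thymocytes, 2.14-fold above wild type without TCF-1. Mxd4, an antagonist that shares the partner MAX, was at 10.63, 11.06 and 9.77, 1.81-fold below wild type. They were the 2 genes of the 11 beyond 1.5-fold in that comparison, and 0 of the 11 were beyond it on the transgenic array. Max itself was at 10.76, 10.77 and 10.62.

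Among the 34 members with both a promoter window and a value, those with the E-box CACGTG and those without it were compared for the difference of the TCF-1-deficient from the wild type array. The 8 with the E-box had a median difference of 0.72 and ran from 0.03 (Ltv1) to 1.05 (Mettl1), with 5 higher by at least 1.5-fold. The 26 without it had a median of 0.44 and ran from -0.30 (Wdr12) to 1.03 (Polr1b), with 10 higher. The ranges overlap over most of their length. Fbl (0.997), Rrp12 (0.54), Bop1 (0.42) and Npm1 (0.33) have no window and are in neither group. The part of MYC in the members' differences was not tested.

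The tissue label was set against marker genes, and markers of thymocyte stages differed on the TCF-1-deficient array together with the members. Of 9 measured double-positive markers, including Cd4, Cd8a, Rag1 and Ccr9, 9 were lower without TCF-1, with a median of -1.81 and a summed linear level of 55738 in wild type, 58700 in transgenic and 14989 in TCF-1-deficient thymocytes. Cd4 and Cd8a were at 12.87 and 12.93 on the wild type array, so the defining markers of thymocytes were present. Of 9 double-negative markers and Notch readouts 8 were higher, with a median of 1.79 and summed levels of 6353, 4463 and 22070, and Ptcra, the pre-T cell receptor chain, was at 8.91, 8.37 and 10.70. With the transgene, 8 of these 9 were below wild type (median -0.39), and Dtx1 (-0.80) and Notch1 (-0.66) were lower by 1.5-fold or more. In bulk RNA, a changed share of cells of a stage and a changed amount of RNA per cell cannot be told apart. The part of the cell stages in the members' differences was not tested.

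Genes of dividing cells differed less than the members on the TCF-1-deficient array. Of 19 measured, 3 were higher by at least 1.5-fold, the replication helicase genes Mcm3 (0.69), Mcm7 (0.63) and Mcm6 (0.60), and 0 were lower. Their differences had a median of 0.25, with summed levels of 40093, 36532 and 44692 on the wild type, transgenic and TCF-1-deficient arrays. Mki67, which encodes the proliferation antigen Ki-67, was at 11.90, 11.52 and 11.61, and Top2a, a topoisomerase of dividing cells, at 11.46, 11.24 and 11.32. Both were thus highest in wild type, unlike most of the list. Without TCF-1, 13 of the 19 were above wild type, 4 below and 2 identical. With the transgene 16 of the 19 were below wild type, with a median of -0.10. Over all genes 22.2% were below, and among genes at or above the median level 37.4%. Centring each array on its median, which adds 0.079 to every difference of the transgenic array from wild type, was not applied to this list. The part of cell division in the members' values was not tested.

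Markers of other cells were also examined, and some of these cells could add RNA of their own. Of 7 genes of γδ and innate-like T cells 6 were higher on the TCF-1-deficient array, with summed levels of 1231, 1121 and 6683 on the wild type, transgenic and TCF-1-deficient arrays. Of 7 B lymphocyte genes 5 were higher, with summed levels of 1375, 1654 and 2898, and Cd79a, a signalling subunit of the B cell receptor, was at 6.99, 7.96 and 9.52. Of 8 myeloid genes 3 were higher, with summed levels of 1154, 1351 and 1764. Of 3 erythroid genes, Alas2 was higher both without TCF-1 (1.14) and with the transgene (1.11), and the sums were 302, 478 and 485. With the transgene, 2 of the 7 B lymphocyte genes were higher, Cd79a (0.97) and Fcmr (0.63). On that array 1 of the 8 myeloid genes, Itgam (0.97), and 0 of the 7 genes of γδ and innate-like T cells were higher. Markers of mature single-positive thymocytes, 5 in number, summed to 3407, 2884 and 1872. Without TCF-1, 2 of the 5 were lower, Cd69 (-2.24) and Ccr7. S1pr1 was below wild type by less (-0.25), while Klf2 (0.38) and Il6ra (0.05) were above it, so the markers did not move together. With the transgene 4 of the 5 were below wild type, and Ccr7 (-0.76) and S1pr1 (-0.81) were lower by 1.5-fold or more. The 6 thymic epithelial markers, including Foxn1 and Epcam, did not reach 6.90, the median over genes, on any array, with sums of 448, 467 and 476. The 6 fibroblast and endothelial markers summed to 1422, 1348 and 1192. Without TCF-1, 4 of the 6 were above wild type, 1 was identical and 1 was below, Pecam1, at 9.90, 9.77 and 9.43. The part of these cells in the members' differences was not tested.

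**Figure D4:**
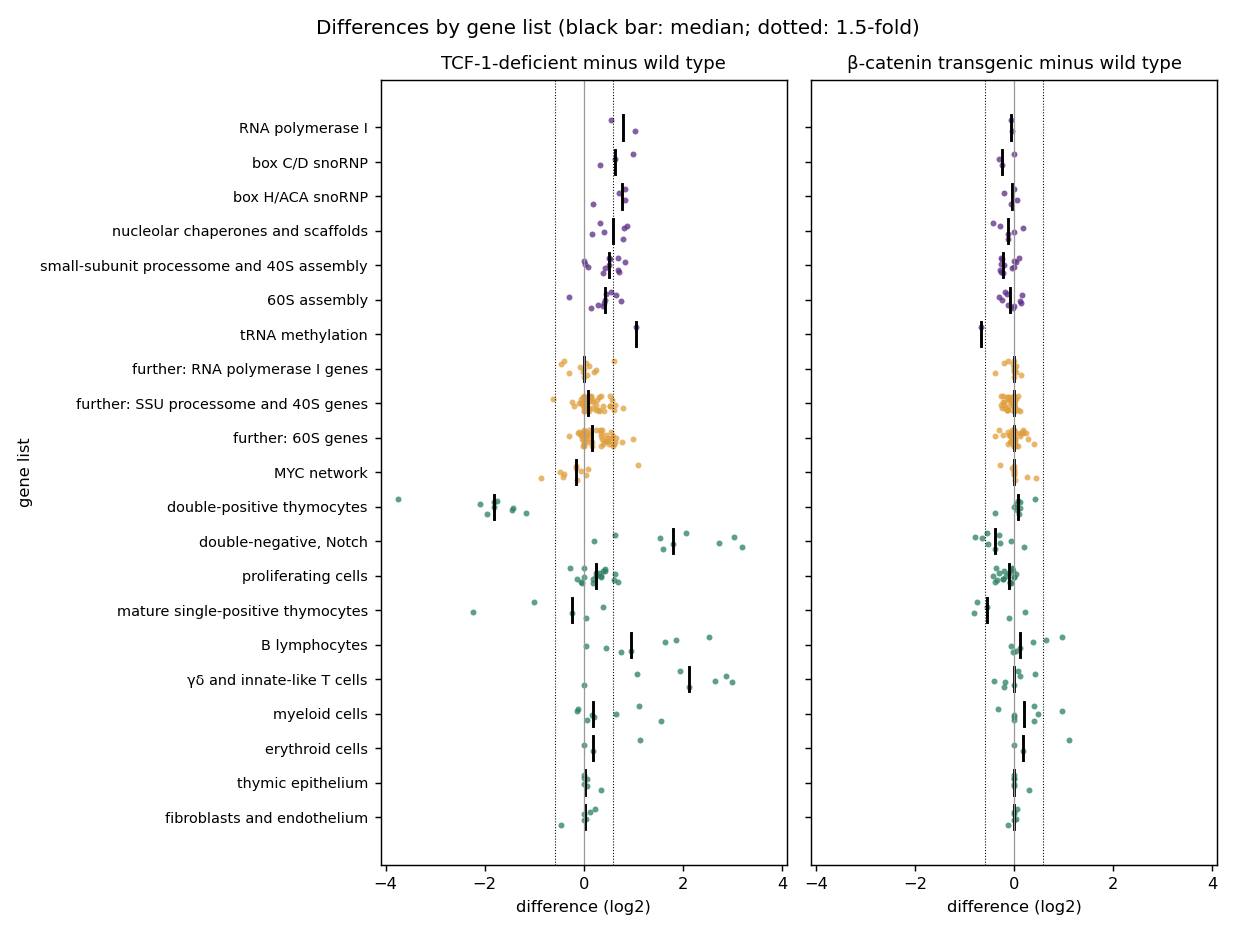
Log2 differences from wild type (horizontal axis) on the TCF-1-deficient (left) and β-catenin transgenic (right) arrays for each gene of each list (vertical axis), with the 38 genes by role in purple, further lists in orange and cell type markers in green; black bars are medians and dotted lines mark 1.5-fold. On the left the role medians of the 38 genes lie between 0.43 and 1.05, double-positive markers at a median of -1.81 and double-negative markers at 1.79, while on the right the medians of the lists with more than 1 gene lie within 0.55 of 0.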

How the data were processed

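RNA of 3 thymocyte samples, 1 per genotype, was measured on Affymetrix arrays. Per the submitters' processing notes, the authors used RMA and Partek, and the deposited values, which run from 1.73 to 14.8, were taken as log2 values. Their log base, versions, settings and genome build were not given in the sources used here. Values of 28.8% of the 35556 probe sets are identical across the 3 arrays, so a difference of exactly 0 is not a measured equality. Array medians were 6.73 (wild type), 6.65 (transgenic) and 6.60 (TCF-1-deficient).

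GEO's platform annotation gave the gene names, and 21789 probe sets have 1 symbol, of which 99.6% matched the GRCm38.p6 gene table by Entrez identifier. The 1 probe set per gene with the highest mean was kept, and differences between arrays were computed over all 19938 genes with no further normalisation. No test was possible with 1 array per group, and precision is limited by the number of arrays. Summed levels are sums of 2 to the power of the values. The calculation of calls was checked on simulated arrays, which does not bear on the error of the single arrays. All 38 measured members and the marker lists are reported. For the further lists, the 5 most different genes per direction past 1.5-fold are named, and others named there were chosen after their values were seen. The members and all lists were chosen with earlier results of these data known. The TCF/LEF sequence search was added after the data were seen. Alternatives were other folds, a filter on dim genes, removal of a loess trend (span 0.3), centring, other probe set rules, the mean over members, and leaving out identical values or chromosomes X and Y. Sequences are from RefSeq. Python 3.11.15, NumPy 2.4.6, pandas 2.3.3, statsmodels 0.14.6 and matplotlib 3.10.9 were used.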

Additional observations from a re-analysis of the deposited data

How the results depend on the processing

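The number of members called depended on the fold. Without TCF-1, 2 members were beyond 2-fold and 0 beyond 3-fold. With the transgene, 0 were beyond 2-fold and 0 beyond 3-fold. Between the mutant arrays, 3 were beyond 2-fold and 1, Mettl1, beyond 3-fold. Centring each array on its median took the median member difference with the transgene to -0.043. Under the other alternatives run, namely the filter on dim genes, loess, the other probe set rules, the mean over members, and leaving out identical values or chromosomes X and Y, counts and medians stayed within 1.5 times the reported values and kept their direction. Taking the probe set with the lowest mean made Wdr12 lower without TCF-1 by 1.5-fold, the 1 member called lower in that comparison. All 285 values of members called at 1.5-fold, taken under alternatives other than the fold, stayed past it in the same direction. Most of them repeat the reported value, because the filter and the leaving out of genes cannot change a member's difference. The probe set rules can change only Fbl and Wdr12, since 36 members have 1 probe set. Only loess and centring could change the others. Centring adds 0.132 to every difference of the TCF-1-deficient array from wild type. No paired analysis was possible because each genotype has 1 array.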

Other observations

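Genes of 4 other groups act beside the nucleolar set and were listed after the data were seen, so their counts are descriptions. The RNA exosome trims rRNA precursors, and 0 of its 12 measured genes were beyond 1.5-fold on the TCF-1-deficient array, with a median of 0.17 and 9 of 12 above wild type. Exosc2 had the largest difference (0.58). RNA polymerase III makes 5S rRNA and tRNAs, and 0 of its 18 measured genes were beyond 1.5-fold in either comparison with wild type, with a median of -0.001 without TCF-1. Of 10 proteins of RNase MRP and RNase P, which cut rRNA and tRNA precursors, 1 was higher without TCF-1, Rpp38, at 9.18 in wild type, 9.41 in transgenic and 10.31 in TCF-1-deficient thymocytes.

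Of 14 genes of tRNA modification, 3 were higher without TCF-1 and 0 lower, with a median of 0.26. Thg1l, which adds the extra guanosine of histidine tRNA, was at 7.95, 7.92 and 9.04 on the wild type, transgenic and TCF-1-deficient arrays, Pus7, a pseudouridine synthase, at 7.68, 7.51 and 8.64, and Trmt1, a guanosine methyltransferase, at 8.837, 8.767 and 9.600. Wdr4, the partner subunit of Mettl1, was at 7.44, 7.44 and 7.47. The subunits of that enzyme therefore differed by unequal amounts, 1.05 for Mettl1 and 0.03 for Wdr4.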
